A study of Saccharomyces cerevisiae with 12 samples.

Results

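Gene expression was compared between nascent ulp2Δ cells and WT cells of the budding yeast Saccharomyces cerevisiae, with 3 RNA-seq libraries in each group (6 of the 12 libraries of the series). Nascent ulp2Δ cells are cells of strain MHY1379 that had recently lost their only copy of ULP2. WT is MHY1379 itself, which carries the chromosomal ulp2Δ deletion and a low-copy, URA3-marked plasmid with ULP2. All groups therefore share the deletion. By the study's account, nascent cells and WT differ by the plasmid and by the selection on 5-fluoroorotic acid (FOA) that removed it. Nascent cells also grew for many generations during these procedures, and TRP1 RNA differed between the groups, as given below. The other 6 libraries, from 2 lines grown for a long time without Ulp2, were not compared. They entered the choice of genes to test, the scaling of libraries and the shared estimate of the spread. Labels call the libraries replicates but do not say that they came from separate cultures, so the p-values measure the spread between these libraries, which may be technical. Members were all named genes with enough reads to test, 6372 of 7108. Of these, 649 had systematic names of chromosomes I and XII, and they were described apart from the other 5723. The 5723 hold 109 genes, mostly small RNAs, whose names give no chromosome. By symbol the R64 annotation places 17 of these 109 on chromosome I or XII and 83 elsewhere, and 9 were not placed.

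Ulp2 is a protease of the nucleus that trims chains of SUMO, a small protein that is joined to other proteins and alters their stability and partners. Proteins with long SUMO chains can be bound by ubiquitin ligases that recognise SUMO and be sent to the proteasome. Yeast cells without Ulp2 are known for slow growth, sensitivity to stress and gain of extra copies of certain chromosomes. When a chromosome is gained, the mRNA of most genes on it rises with copy number, so genes on such a chromosome are read best against their own chromosome.

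The upstream sequences of 5 genes that the results turn on are shown first, as 300 bases of the R64 reference (the sacCer3 build, from RefSeq), read 5′ to 3′ towards the gene and ending 101 bases before the coding start. PHO5 and PHO89 are both induced by low phosphate through the factor Pho4, yet their levels moved in opposite directions here. Capitals mark CACGTG and CACGTT, letters that Pho4 can bind, in PHO5 (chrII:431052-431351 on the minus strand) and PHO89 (chrII:798623-798922 on the minus strand).
PHO5: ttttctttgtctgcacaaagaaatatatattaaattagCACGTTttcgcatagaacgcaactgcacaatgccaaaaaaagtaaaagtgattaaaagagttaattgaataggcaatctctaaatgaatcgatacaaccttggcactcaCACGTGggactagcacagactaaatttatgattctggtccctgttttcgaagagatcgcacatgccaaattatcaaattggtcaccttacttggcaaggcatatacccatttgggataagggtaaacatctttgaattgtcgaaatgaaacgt
PHO89: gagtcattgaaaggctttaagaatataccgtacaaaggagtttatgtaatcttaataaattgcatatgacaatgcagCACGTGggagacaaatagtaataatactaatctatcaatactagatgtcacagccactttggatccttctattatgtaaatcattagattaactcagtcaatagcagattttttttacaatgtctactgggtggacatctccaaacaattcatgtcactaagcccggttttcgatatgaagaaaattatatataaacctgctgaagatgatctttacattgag
IDH1, a subunit of the isocitrate dehydrogenase of the TCA cycle, had the largest fall in its pathway, and capitals mark CCAAT, the letters of the Hap complex, read here on the other strand as ATTGG (chrXIV:559103-559402 on the minus strand).
IDH1: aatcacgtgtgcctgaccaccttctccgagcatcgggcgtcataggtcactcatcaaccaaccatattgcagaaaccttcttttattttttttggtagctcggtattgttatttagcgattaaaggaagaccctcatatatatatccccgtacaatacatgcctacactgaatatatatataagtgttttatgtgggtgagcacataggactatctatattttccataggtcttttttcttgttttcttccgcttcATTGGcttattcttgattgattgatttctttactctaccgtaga
MFA2, a gene for the a-factor pheromone, had the largest fall among mating genes, and capitals mark TGAAACA, the pheromone response element (chrXIV:352014-352313 on the plus strand).
MFA2: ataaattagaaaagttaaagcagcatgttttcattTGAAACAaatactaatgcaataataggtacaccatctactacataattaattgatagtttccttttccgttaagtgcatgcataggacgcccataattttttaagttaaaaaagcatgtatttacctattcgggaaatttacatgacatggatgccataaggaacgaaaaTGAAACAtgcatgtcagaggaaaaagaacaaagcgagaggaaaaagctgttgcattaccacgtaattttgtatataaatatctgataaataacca
FIT3, a cell wall protein that helps retain iron carriers, rose, and capitals mark TGCACCC, a core of the sites for the iron factor Aft1, on either strand (chrXV:1061156-1061455 on the minus strand).
FIT3: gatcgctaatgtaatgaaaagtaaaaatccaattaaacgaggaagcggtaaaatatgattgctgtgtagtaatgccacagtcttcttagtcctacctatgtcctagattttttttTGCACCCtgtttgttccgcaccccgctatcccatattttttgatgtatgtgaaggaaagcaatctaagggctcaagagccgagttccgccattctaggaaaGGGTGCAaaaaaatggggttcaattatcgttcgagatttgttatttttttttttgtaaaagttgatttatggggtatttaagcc
A match is only a description of the letters in the window. All motifs were searched on both strands in the same window of 5822 tested coding genes, and CACGTG and ACGCGT read the same on both strands. CACGTG was found in 18 of the 36 windows of phosphate genes and in 4.59% of all windows, and CACGTT in 9 of the 36 and in 9.91% of all. CCAAT was found in 83.3% of 18 TCA cycle windows, 78.3% of 23 respiratory chain windows and 88.2% of 17 ATP synthase windows, against 43.9% of all. In mitochondrial ribosomal protein windows it was found in 41.9% of 74. Over members on all chromosomes, the median log2 fold change with and without CCAAT was -0.95 and -0.67 for TCA cycle genes. It was -0.83 and -0.80 for respiratory chain genes, -0.96 and -1.11 for ATP synthase genes, and -0.51 and -0.65 for mitochondrial ribosomal protein genes. TGAAACA was found in 58.8% of 34 pheromone genes and in 6 of the 7 a-cell markers, against 7.44% of all, and TGCACCC in 16 of 32 iron genes, against 1.48%. GATGAG was found in 60.4% of 53 small subunit processome windows and 63.5% of 63 pre-60S windows, against 18.3%. GGTGGCA was found in 59.5% of 37 proteasome windows, against 2.77%, and AGGGG in 65.0% of 20 general stress windows, against 23.8%. The share for AGGGG was 46.9% of 32 heat shock and chaperone windows and 38.2% of 34 oxidative stress windows. ACGCGT was found in 42.2% of 45 replication windows, against 4.05%, and TGACTC in 73.3% of 15 arginine windows, against 8.61%. In the other amino acid lists, the share for TGACTC ran from 33.3% of 33 methionine and sulfur windows to 66.7% of 15 branched-chain windows. TCGTATA was found in 24.1% of 29 sterol windows, against 4.59%, and CCAGC in 10 of 20 windows of daughter-cell separation genes, against 23.4%.

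The deleted gene checked the labels. ULP2 (YIL031W, chromosome IX from 292633 to 295737 on R64) had 10, 5 and 5 counts in nascent ulp2Δ, against 8699, 8519 and 10694 counts in WT. URA3 (YEL021W), the uracil synthesis gene that marks the plasmid, had 3142, 3847 and 3126 counts in nascent ulp2Δ, against 50297, 47875 and 56358 in WT. The study also describes giving an empty plasmid back to cells after FOA, which the labels of these libraries do not mention. TRP1 (YDR007W), a tryptophan synthesis gene, had 0, 0 and 3 counts in nascent ulp2Δ and 674, 623 and 807 in WT. With a floor of 3 counts per library, TRP1 was at least 244-fold lower in nascent ulp2Δ. YDR008C, annotated across TRP1, had 3, 0 and 0 counts in nascent ulp2Δ, against 141, 122 and 127 in WT, so it was at least 45.6-fold lower, and reads of this pair cannot be told apart without strand. The cause of the TRP1 difference was not tested. Other common marker genes changed by less than 2-fold: the log2 fold change (nascent ulp2Δ over WT) was -0.22 (SE 0.07) for HIS3, -0.56 (SE 0.04) for LEU2 and 0.24 (SE 0.06) for LYS2. The named genes took 20467216 to 25793918 counts in the nascent libraries, against 22238141 to 26280989 in WT.

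In what follows, a gene rose or fell when its adjusted p was under 0.05 in edgeR's quasi-likelihood test, and it was called when it also changed 2-fold or more. Counts over a list of protein-coding genes cover its members off chromosomes I and XII unless these are named. Levels are given as CPM, counts normalised to library size with TMM scaling. Over all tested genes, 413 were called higher (6.48%) and 170 lower (2.67%) in nascent ulp2Δ. Among the 5723 other genes, 237 were called higher (4.14%) and 167 lower (2.92%), and 227 were higher without the 17 small RNA and rRNA genes placed on chromosome I or XII by symbol. With no fold threshold, 1594 of these genes rose (27.9%) and 2503 fell (43.7%), so a list should be read against these shares. For 74.3% of them the nascent and WT libraries did not overlap, as for 90.4% of genes on chromosomes I and XII. The balance of rises and falls depended on scaling. With library totals in place of TMM all fold changes moved up by 0.15 on the log2 scale, and 344 genes were higher and 112 lower, so that 75.4% of the called genes off chromosomes I and XII were higher against 58.7% with TMM. With TMM factors taken only from genes off chromosomes I and XII, that share was 69.7%.

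Chromosomes I and XII stood above the rest as wholes. The median log2 fold change was 0.72 for the 103 genes of chromosome I and 0.72 for the 546 genes of chromosome XII, against -0.09 for the 5590 nuclear genes placed on the other 14 chromosomes. Relative to other chromosomes, the median of chromosome I was shifted by 0.81 ± 0.04 in nascent ulp2Δ and -0.0020 ± 0.03 in WT (SD, n = 3 each). For chromosome XII the shift was 0.81 ± 0.0058 in nascent ulp2Δ and 0.0012 ± 0.0057 in WT (SD, n = 3 each). No nascent library overlapped a WT library on either chromosome, and the exact permutation test gave p = 0.1 for each (two-sided), the smallest that 3 libraries against 3 allow. Both arms moved alike: the median was 0.72 on the left and 0.71 on the right arm of chromosome I, and 0.69 on the left and 0.72 on the right arm of chromosome XII, which carries the ribosomal DNA. Genes of chromosome I took 2.81 to 2.85% of counts in nascent ulp2Δ, against 1.70 to 1.78% in WT, and genes of chromosome XII took 13.5 to 13.8%, against 8.33 to 8.35%. Chromosome XIII came next with a smaller shift of 0.17 ± 0.01 in nascent ulp2Δ, against 0.0012 ± 0.0017 in WT (SD, n = 3 each). Chromosome IX followed at 0.07 ± 0.01 in nascent ulp2Δ, against 0.00091 ± 0.0062 in WT, and the means of the remaining nuclear chromosomes lay between -0.05 and 0.01 in nascent ulp2Δ. In bulk RNA, a higher level in every cell cannot be told apart from a larger rise in some of the cells.

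**Figure D1:**
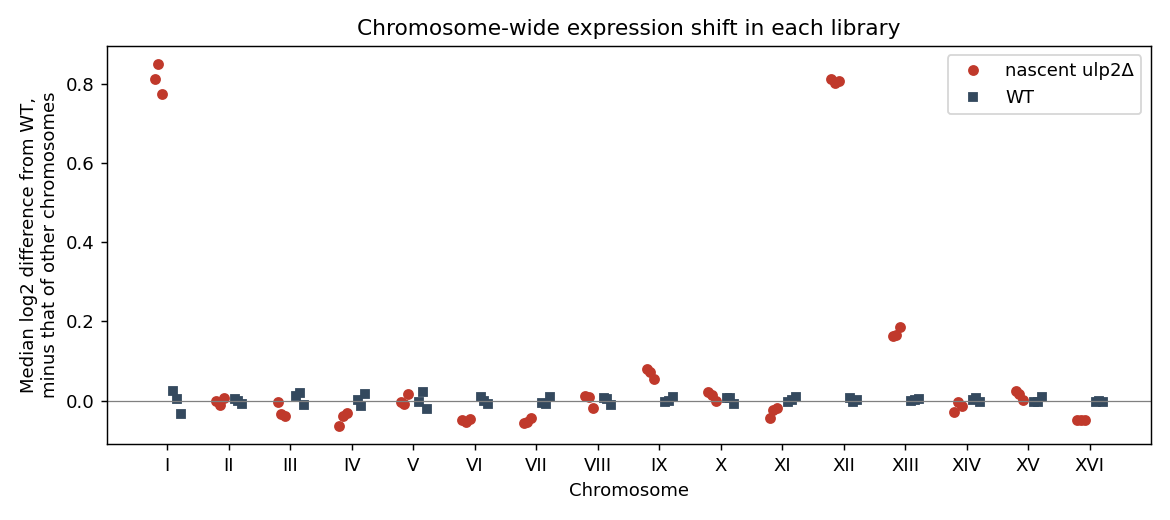
Shift of each chromosome in each library: the median log2 difference of its genes from the WT mean (for a WT library, from the other WT libraries), minus the median of the other nuclear chromosomes. Each point is a library, nascent ulp2Δ as circles and WT as squares; chromosomes I and XII lie near 0.81 in the 3 nascent libraries, and chromosome XIII lies near 0.17.

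On chromosomes I and XII, 550 of 649 genes rose (84.7%) and 25 fell (3.85%), and 176 were called higher (27.1%) against 3 called lower (0.462%). The distribution of fold changes was moved as a whole rather than split, since 92.8% of these genes had a fold change above 0, against 42.9% of genes elsewhere. Measured against the median of their own chromosome, 219 genes lay above it (33.7%) and 228 below (35.1%) at an adjusted p under 0.05. With the 2-fold threshold, 31 lay above (4.78%) and 23 below (3.54%), shares near those of called genes elsewhere.

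**Figure D2:**
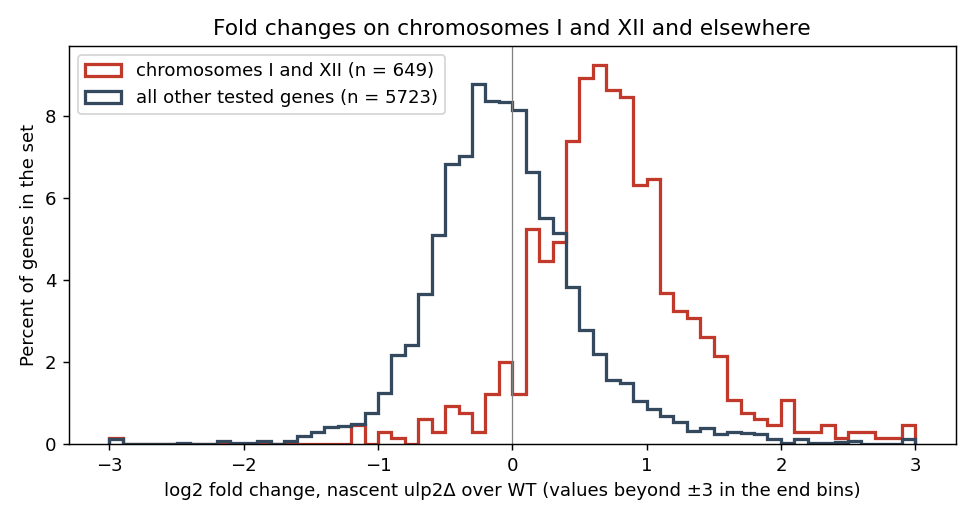
Distribution of log2 fold changes, nascent ulp2Δ over WT, as the percent of genes of each set in bins of 0.1. The 649 genes of chromosomes I and XII have a median of 0.72, and the 5723 other tested genes have a median of -0.08.

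Genes of mitochondrial energy metabolism were lower in nascent ulp2Δ, those on chromosome XII included. The TCA cycle oxidises acetyl groups in mitochondria, and the respiratory chain and ATP synthase turn the electrons it yields into ATP. Of 16 TCA cycle genes off chromosomes I and XII, 15 fell and 1 rose, with a median log2 fold change of -0.95 and 7 called lower. IDH1 (YNL037C, chromosome XIV from 557920 to 559002) had 444, 429 and 447 CPM in nascent ulp2Δ, against 1283, 1317 and 1249 CPM in WT. Its nascent libraries lay close together and far under WT, a log2 fold change of -1.54 (SE 0.04, adjusted p = 8.29e-14). SDH3, a membrane subunit of succinate dehydrogenase, fell by 1.24 on the log2 scale (SE 0.04). MDH1, the mitochondrial malate dehydrogenase, fell by 1.17 (SE 0.05), and KGD2, a subunit of α-ketoglutarate dehydrogenase, fell by 1.17 (SE 0.04). The pair of members on chromosome XII fell too, against the rise of that chromosome. ACO1, the aconitase of the TCA cycle, had 1727, 1763 and 1881 CPM in nascent ulp2Δ, against 3455, 3414 and 3528 in WT. All nascent libraries lay under all WT libraries, where groups did not overlap for 90.4% of genes on chromosomes I and XII. ACO1 stood -1.67 (SE 0.05) from its chromosome's median. SDH2, the iron-sulfur subunit of succinate dehydrogenase, had 1070, 1042 and 1067 CPM in nascent ulp2Δ, against 1451, 1496 and 1424 in WT, a log2 fold change of -0.46 (SE 0.03).

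The respiratory chain showed the same direction with 2 exceptions. Of 21 members off chromosomes I and XII, 19 fell, with a median of -0.83. CYC1 (YJR048W), the main cytochrome c, had 242, 246 and 251 CPM in nascent ulp2Δ, against 857, 865 and 887 in WT, a log2 fold change of -1.82 (SE 0.03, adjusted p = 3.1e-15). COX5A, a cytochrome oxidase subunit used in air, had 606, 623 and 665 CPM in nascent ulp2Δ, against 1484, 1463 and 1404 in WT. These were the aerobic forms of paired genes, and both groups were tight. The members that rose were the partner genes known from low oxygen: COX5B had 150, 151 and 143 CPM in nascent ulp2Δ, against 70.9, 69.9 and 75.8 in WT. CYC7, the minor cytochrome c, was named after its values were seen and had 204, 214 and 215 CPM in nascent ulp2Δ, against 108, 107 and 123 in WT. The log2 fold changes were 1.03 (SE 0.04) for COX5B and 0.91 (SE 0.06) for CYC7, so in both pairs the minor form rose where the major form fell. COX6, a further cytochrome oxidase subunit, fell by 1.16 (SE 0.04). Of 16 ATP synthase genes off chromosomes I and XII, all 16 fell, with a median of -0.96. The ATPase regulator STF1 fell by 1.41 (SE 0.06), and the stator and membrane subunits ATP7, ATP20 and TIM11 fell by 1.28 (SE 0.05), 1.25 (SE 0.05) and 1.12 (SE 0.05). Members of these lists on chromosome XII, COX8, COX12 and ATP14, also fell, by 0.63 (SE 0.05), 0.43 (SE 0.04) and 0.35 (SE 0.04), though their chromosome's median was 0.72. HAP4, the regulatory subunit of the Hap complex, had 739, 746 and 811 CPM in nascent ulp2Δ, against 1062, 1032 and 1044 in WT, a log2 fold change of -0.45 (SE 0.04). HAP4 was the lowest of 9 respiratory regulator genes off chromosomes I and XII, of which 4 rose and 4 fell, with a median of 0.08. ADR1, another of these regulators, had a log2 fold change of 0.62.

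Mitochondrial translation followed. Of 72 mitochondrial ribosomal protein genes off chromosomes I and XII, 71 fell and none rose, with a median of -0.61 and a range of quartiles from -0.76 to -0.42. Only MRPS28, a small subunit protein, was called, with 64.9, 64.3 and 64.7 CPM in nascent ulp2Δ, against 144, 133 and 137 in WT. Transcripts of the mitochondrial genome were uneven between libraries: of 24 tested, 14 fell and 3 rose, and the shift of this genome was -0.34 ± 0.17 in nascent ulp2Δ, against -0.01 ± 0.23 in WT (SD, n = 3 each). ATP8, an ATP synthase gene of that genome, fell by 1.09 (SE 0.22), and Q0092, an uncharacterised frame there, rose by 1.62 (SE 0.44) at under 2 CPM in every library.

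Glycolysis was mixed between paralogs. Of 18 genes off chromosomes I and XII, 12 fell, 4 rose and 2 did not pass the test, with a median of -0.61. TDH1 (YJL052W), 1 of 3 genes for glyceraldehyde-3-phosphate dehydrogenase, had 1183, 1162 and 1169 CPM in nascent ulp2Δ, against 5901, 6043 and 5623 in WT. The gap was many times the spread of either group, a log2 fold change of -2.32 (SE 0.04, adjusted p = 2.84e-15). Its paralogs TDH2 and TDH3, named for comparison, had log2 fold changes of -0.69 (SE 0.05) and -0.86 (SE 0.05). ENO1, an enolase, had 1574, 1534 and 1562 CPM in nascent ulp2Δ, against 5668, 5581 and 5017 in WT. Its paralog ENO2, named for comparison, had 1028, 1027 and 898 CPM in nascent ulp2Δ, against 1015, 967 and 880 in WT, and its groups overlapped. PGK1, phosphoglycerate kinase, fell by 1.42 (SE 0.06), and PGI1, phosphoglucose isomerase, fell by 1.05 (SE 0.05). The alcohol dehydrogenases moved apart. ADH1, which makes ethanol, had 1748, 1760 and 1680 CPM in nascent ulp2Δ, against 4844, 4594 and 4171 in WT. ADH2, which uses ethanol, had 2793, 2777 and 2945 CPM in nascent ulp2Δ, against 784, 782 and 709 in WT. ADH1 was thus above ADH2 in WT and below it in nascent ulp2Δ, and reads of such close paralogs may be shared between them. In the hexose transport list, which also holds the glucose sensors SNF3 and RGT2 and the regulators MTH1 and STD1, 12 of 16 tested genes off chromosomes I and XII rose and 1 fell, with a median of 0.63. HXT2, a carrier for low glucose, had 117, 123 and 117 CPM in nascent ulp2Δ, against 44.0, 44.7 and 40.2 in WT, and HXT3, a low-affinity carrier, rose by 1.25 (SE 0.06) on the log2 scale. HXT17 rose by 1.26 (SE 0.28) at only 7.22 to 8.78 CPM in nascent ulp2Δ, against 2.09 to 4.25 in WT. GAL2, the galactose carrier on chromosome XII, rose by 1.40 (SE 0.17) and stood 0.68 above its chromosome.

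The 2 arms of ribosome production moved in opposite directions. Cytosolic ribosomal proteins build the ribosome itself, while the processome and pre-60S factors assemble it in the nucleolus. Of 119 ribosomal protein genes off chromosomes I and XII, 112 rose and 2 fell, with a median of 0.45, and 1 was called. On chromosomes I and XII, all 18 rose and 13 were called, where 84.7% of all genes rose and 27.1% were called higher. Their median was 1.12, which is 0.41 above their chromosome. For the 119 elsewhere, the median was 0.54 above that of nuclear genes on the other 14 chromosomes. RPL8B had 921, 956 and 891 CPM in nascent ulp2Δ, against 328, 325 and 302 in WT, and RPS29A had 288, 288 and 271, against 92.9, 99.7 and 95.7. Against WT these were the largest changes of the list, along with RPS25B at 1.37 and RPL31B at 1.29 on the log2 scale. All 4 lie on chromosome XII, so these values include its shift. Against their chromosome's median, RPS29A stood at 0.84, RPL8B at 0.82, RPS25B at 0.66 and RPL31B at 0.58. Most ribosomal proteins have near-identical pairs, so the split within a pair is uncertain. Of 46 small subunit processome genes off chromosomes I and XII, 31 fell and 5 rose, with a median of -0.36, and of 56 pre-60S genes, 49 fell and none rose, with a median of -0.39. NOP8, a pre-60S factor, had 24.9 to 26.8 CPM in nascent ulp2Δ, against 49.4 to 54.8 in WT. SSF2, another pre-60S factor, fell by 1.01 (SE 0.06) but was not called at 2-fold under 10 of the alternatives. On chromosomes I and XII, the 7 processome genes had a median of 0.56 and the 7 pre-60S genes of 0.36, which is -0.16 and -0.35 relative to their chromosomes. Small nucleolar RNAs, most of which guide rRNA modification, had a positive median. Placed by symbol, 62 lay off chromosomes I and XII, of which 35 rose and 1 fell, with a median of 0.62. All 8 on chromosomes I and XII rose, with a median of 1.48, where 84.7% of named genes rose. The list also held spliceosomal RNAs, of which snR14 fell, while snR6 and snR19 did not pass the test. Levels were low, and the largest rises of this class against WT were on chromosome XII. There, snR55 had 3.08, 3.50 and 3.07 CPM in nascent ulp2Δ, against 1.02, 1.18 and 0.301 in WT, and snR61 had 4.23, 3.88 and 4.60, against 0.808, 1.27 and 1.39. The log2 fold changes, 1.96 for snR55 and 1.86 for snR61, include the shift of chromosome XII, whose median was 0.72. On chromosome XIII, snR76 rose by 1.73.

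**Figure D3:**
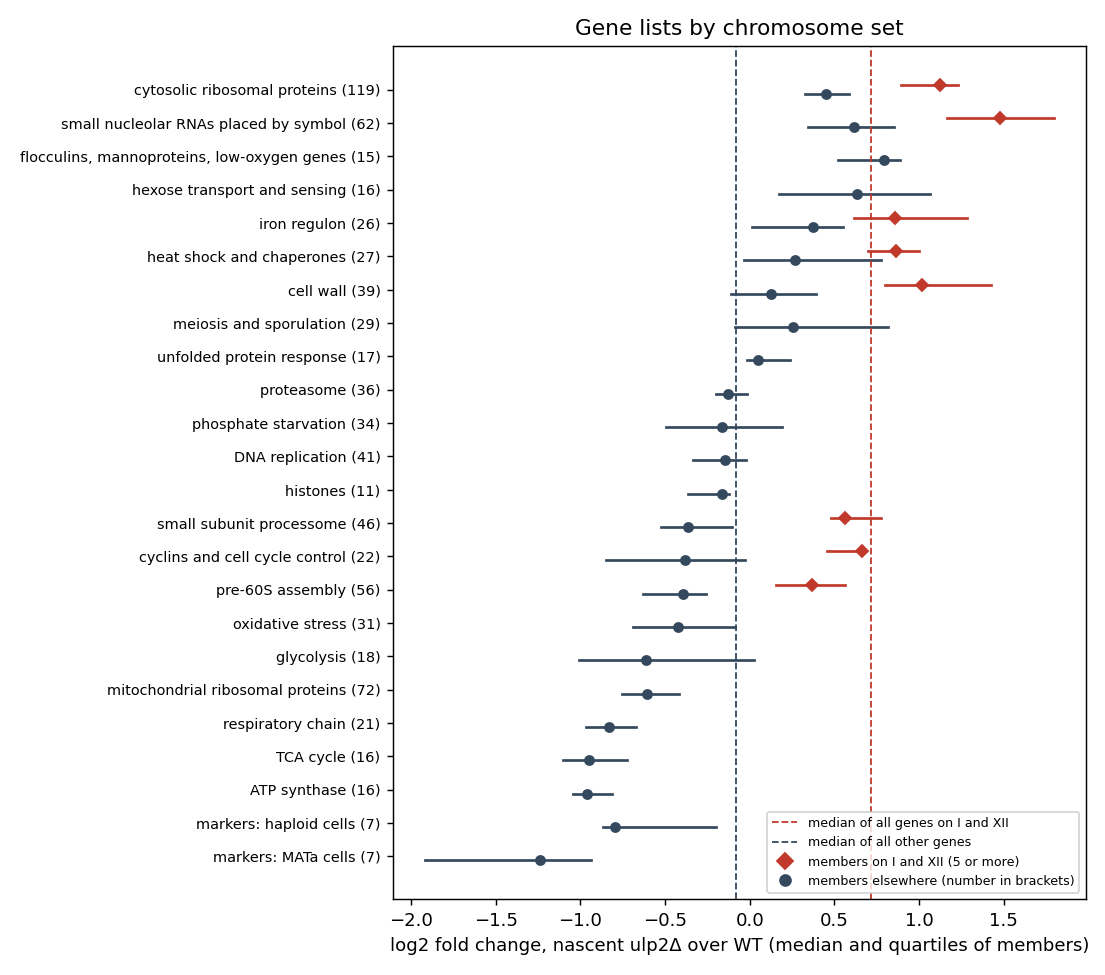
Log2 fold change, nascent ulp2Δ over WT, of gene lists: points are medians over members and bars run between quartiles. Diamonds are members on chromosomes I and XII, circles are members elsewhere, and dashed lines are the medians of all genes of each set, 0.72 and -0.08; mitochondrial lists lie near -0.61 to -0.96 and ribosomal proteins at 0.45.

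Chaperone and stress genes did not move as a block. Of 27 heat shock and chaperone genes off chromosomes I and XII, 18 rose and 6 fell, with a median of 0.26. BTN2 (YGR142W), which gathers misfolded proteins into deposits, had 761, 837 and 822 CPM in nascent ulp2Δ, against 148, 142 and 159 in WT, a log2 fold change of 2.43 (SE 0.05, adjusted p = 9.32e-15). APJ1, an Hsp40 co-chaperone, had 228, 221 and 219 CPM in nascent ulp2Δ, against 70.7, 68.8 and 70.7 in WT. SSA4, an inducible Hsp70 named after its values were seen, rose by 1.14 (SE 0.05), and SSA2, an Hsp70 on chromosome XII, rose by 1.16 (SE 0.07), 0.45 above its chromosome. HSP26, a small chaperone of stationary cells, went the other way with 2905, 2993 and 3027 CPM in nascent ulp2Δ, against 8282, 8236 and 8170 in WT. So did the genes of drying and osmotic stress SIP18, with 567, 507 and 517 CPM in nascent ulp2Δ, against 4480, 5226 and 4895 in WT, and GRE1, with 251, 239 and 252, against 929, 966 and 926. YMR175W-A, a frame beside SIP18, fell by 2.62 (SE 0.08), and DPC7, a small mitochondrial protein, fell by 2.86 (SE 0.09). In the endoplasmic reticulum, the oxidase ERO1 rose by 1.18 (SE 0.06) and the Hsp70 KAR2 rose by 1.12 (SE 0.04), while 9 of the 17 unfolded protein response genes did not pass the test. Of 31 oxidative stress genes off chromosomes I and XII, 23 fell and 6 rose, with a median of -0.42. SOD2, the mitochondrial superoxide dismutase, had 759, 739 and 754 CPM in nascent ulp2Δ, against 2062, 2087 and 1855 in WT. The peroxiredoxin TSA1 fell by 1.15 (SE 0.04) and the glutaredoxin GRX2 by 1.14 (SE 0.04), while CTA1, the peroxisomal catalase, rose by 1.26 (SE 0.04). Of 36 proteasome genes off chromosomes I and XII, 22 fell and 7 rose with none called, and their median was -0.13 with TMM and 0.02 with library totals.

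Mating genes of a cells were lower in nascent ulp2Δ. Haploid yeast cells have mating type a or α, and each type expresses its own pheromone and receptor genes. Of 7 a-cell markers, 6 fell and none rose, with a median of -1.24, and their summed level was 376 to 402 CPM in nascent ulp2Δ, against 1224 to 1298 CPM in WT. MFA2 (YNL145W) had 64.6, 66.6 and 61.7 CPM in nascent ulp2Δ, against 342, 344 and 365 in WT, a log2 fold change of -2.45 (SE 0.05, adjusted p = 1.01e-14). MFA1, the other a-factor gene, had 87.7, 76.2 and 81.3 CPM in nascent ulp2Δ, against 354, 413 and 356 in WT. Both pheromone genes were far below WT in every nascent library. STE2, the α-factor receptor, fell by 1.24 (SE 0.04), and AGA2, the a-agglutinin subunit, fell by 1.64 (SE 0.08), while ASG7 did not pass the test at -0.02 (SE 0.06). Markers of haploid cells of both types fell too, in 5 of 7 cases off chromosomes I and XII. Their summed levels over all 8 members were 477 to 485 CPM in nascent ulp2Δ, against 779 to 784 in WT. These markers hold genes of the pheromone pathway and also RME1, HO and NEJ1. GPA1, the Gα subunit of the pathway, had 40.6, 44.5 and 38.8 CPM in nascent ulp2Δ, against 110, 107 and 114 in WT, and the kinase FUS3 and the meiotic repressor RME1 fell by 0.89 (SE 0.04) and 0.84 (SE 0.03). Markers of α cells were low, with sums of 65.2 to 78.4 CPM in nascent ulp2Δ, against 70.6 to 74.1 in WT, which overlap. Of the 4, SAG1 took most of the sum and did not pass the test at 0.02 (SE 0.07), STE3 rose by 0.77 (SE 0.19) at under 10 CPM, and MF(ALPHA)1 fell by 2.07 at under 10 CPM in every library. Genes of the silent α cassette were at 0 to 3 counts in every library of both groups, and MATALPHA1 had no count. HMRA1, the a1 gene that is copied at the silent and active loci, had 199, 220 and 212 CPM in nascent ulp2Δ, against 262, 248 and 297 in WT, so both groups had RNA of a cells. Fewer cells expressing a gene and less of its RNA per cell cannot be told apart. In the pheromone response list off chromosomes I and XII, 16 of 32 fell and 5 rose, and PRM10, a membrane protein induced by pheromone, rose by 1.65 (SE 0.09). AFB1, a secreted barrier to the a-factor that lies on chromosome XII, had 98.6, 94.3 and 91.7 CPM in nascent ulp2Δ, against at most 14.6 in WT, 2.16 (SE 0.09) above its chromosome. AFB1 was not among the 4 α-cell markers above, so their sums do not cover it.

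Several regulators of cell division were lower. Of 22 cyclin and cell cycle control genes off chromosomes I and XII, 16 fell and 2 rose, with a median of -0.38. FAR1, a cyclin kinase inhibitor used in pheromone arrest, had 17.3, 17.9 and 17.6 CPM in nascent ulp2Δ, against 77.4, 77.5 and 78.1 in WT, a log2 fold change of -2.14 (SE 0.04). CLN2, a G1 cyclin, had 43.6, 42.7 and 37.2 CPM in nascent ulp2Δ, against 116, 124 and 119 in WT. SWI5, a factor of late mitosis, had 41.9, 38.0 and 35.6, against 110, 112 and 119. In each of these 3 genes the nascent libraries were under all WT libraries, but groups did not overlap for 74.3% of all genes off chromosomes I and XII. CDC20, the activator of the anaphase-promoting complex, fell by 1.36 (SE 0.06), the cohesin subunit MCD1 fell by 1.09 (SE 0.11), and CHS2, the chitin synthase of the septum, fell by 1.45 (SE 0.05). The list of 31 kinetochore and checkpoint genes had 10 lower and 5 higher, and that of 19 cohesin and condensin genes 7 lower and 4 higher, with medians whose sign changed with the scaling. Of 41 DNA replication genes, 20 fell and 4 rose, and none was called. The DNA damage list moved both ways, with 11 of 31 genes higher and 13 lower and a median of 0.01 whose sign changed without 1 WT library. Its largest falls were RNR4 and RNR2, the small subunits of ribonucleotide reductase: RNR4 had 329, 341 and 347 CPM in nascent ulp2Δ, against 1012, 1020 and 983 in WT, and RNR2 had 321, 321 and 320, against 852, 844 and 862. RFX1, a repressor of the RNR genes that lies on chromosome XII, had 208, 208 and 209 CPM in nascent ulp2Δ, against 86.3, 79.8 and 83.5 in WT, 0.61 (SE 0.05) above its chromosome. The repair gene RAD16 rose by 1.10 (SE 0.04).

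The phosphate regulon split within itself. Of 34 genes off chromosomes I and XII, 19 fell and 11 rose, with a median of -0.17. PHO5 (YBR093C, chromosome II from 429548 to 430951), the secreted acid phosphatase, had 40.7, 44.8 and 40.6 CPM in nascent ulp2Δ, against 414, 414 and 375 in WT. PHO89 (YBR296C, chromosome II from 796798 to 798522), a sodium-coupled phosphate carrier, had 389, 404 and 423 CPM in nascent ulp2Δ, against 69.9, 62.6 and 67.8 in WT. The pair thus nearly exchanged levels, with log2 fold changes of -3.25 (SE 0.05, adjusted p = 1.45e-15) for PHO5 and 2.60 (SE 0.05, adjusted p = 7.67e-15) for PHO89. PHO3, the neighbour and close copy of PHO5, had 63.8, 62.6 and 62.5 CPM in nascent ulp2Δ, against 206, 210 and 188 in WT, and their reads may be shared. PHO11, a further acid phosphatase at the end of chromosome I, was the farthest below its chromosome among genes with non-overlapping libraries that DESeq2 also called, by -1.88 (SE 0.18), at 2.07, 2.48 and 2.58 CPM in nascent ulp2Δ, against 5.36, 5.41 and 5.26 in WT. GIT1, a glycerophosphoinositol carrier, fell by 1.25 (SE 0.08). The high-affinity carrier PHO84, named after its values were seen, had 362, 366 and 383 CPM in nascent ulp2Δ, against 706, 662 and 671 in WT, so the 2 phosphate carriers moved in opposite directions.

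Metal genes formed contrasting groups. Of 26 iron regulon genes off chromosomes I and XII, 17 rose and 6 fell, with a median of 0.37, and all 6 on chromosomes I and XII rose, where 84.7% of genes did; the median of the 6 stood 0.14 above their chromosome. FIT3 had 512, 495 and 509 CPM in nascent ulp2Δ, against 115, 116 and 88.9 in WT, a log2 fold change of 2.25 (SE 0.08, adjusted p = 1.34e-12). TIS11, which destabilises mRNAs of iron-using enzymes and lies on chromosome XII, had 45.2 to 46.1 CPM in nascent ulp2Δ, against 8.98 to 11.1 in WT, 1.47 (SE 0.13) above its chromosome. The reductase genes FRE5 and FRE6 rose by 2.51 (SE 0.36) and 1.42 (SE 0.04), FRE5 at only 5.56 to 6.38 CPM in nascent ulp2Δ, against 0.789 to 1.28 in WT. The copper-regulated reductase FRE7 was among the largest falls, with 22.2, 20.7 and 20.8 CPM in nascent ulp2Δ, against 116, 109 and 112 in WT. Looked up for that reason, the copper carrier CTR1 had 115, 113 and 115 CPM in nascent ulp2Δ, against 393, 404 and 393 in WT, while the metallothionein copies CUP1-1 and CUP1-2, which share reads, rose by 0.99 (SE 0.06) and 1.14 (SE 0.18).

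**Figure D4:**
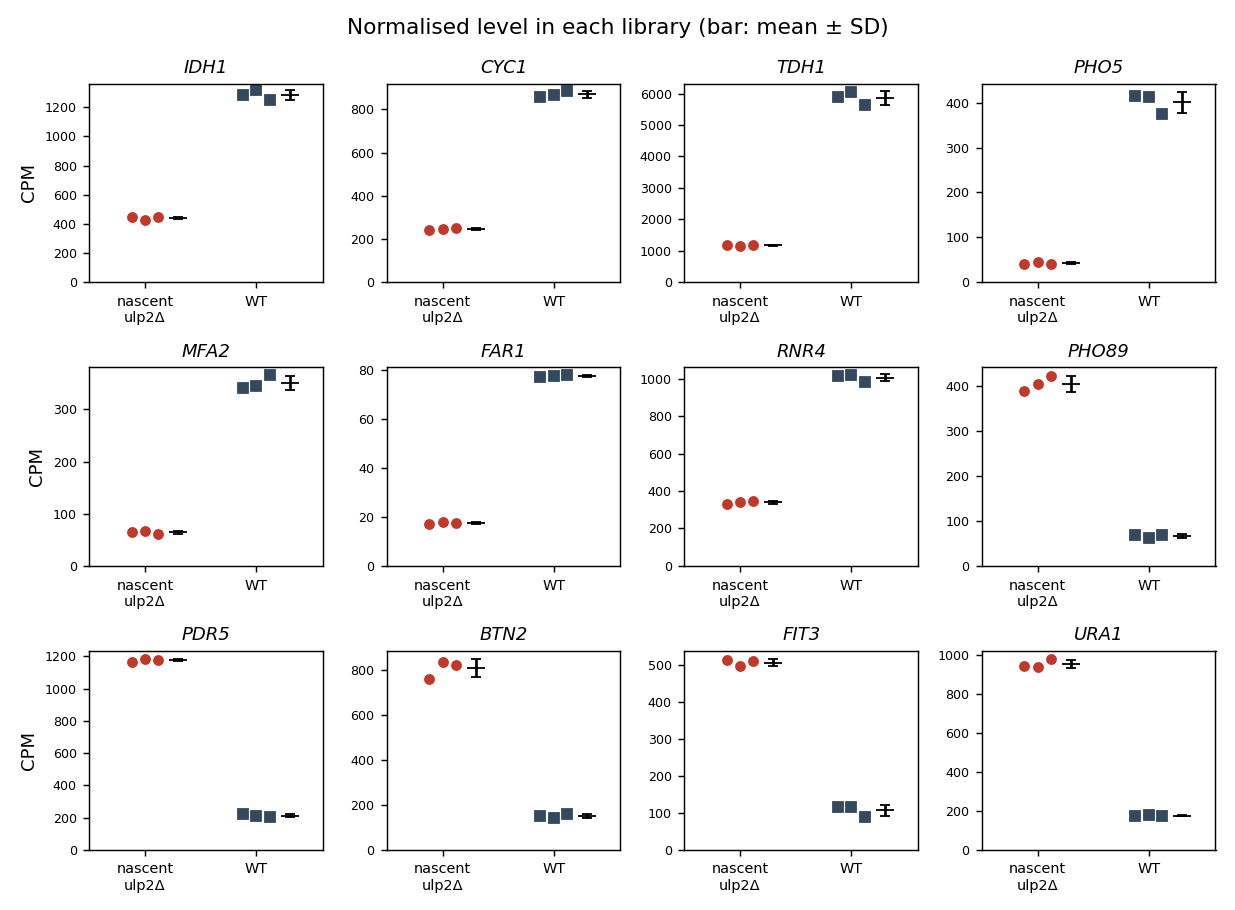
TMM-scaled CPM of 12 genes in the 3 nascent ulp2Δ libraries (circles) and the 3 WT libraries (squares), on linear axes that start at 0, with the mean ± SD beside each group. The genes were picked for large changes, some by a rule that required groups without overlap. No pair of groups overlaps here, as for 74.3% of all tested genes off chromosomes I and XII. IDH1, CYC1, TDH1, PHO5, MFA2, FAR1 and RNR4 are lower in nascent ulp2Δ, and PHO89, PDR5, BTN2, FIT3 and URA1 are higher.

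The pyrimidine list did not move one way, with 5 of 15 genes higher and 6 lower off chromosomes I and XII and a median of -0.04 whose sign changed with the scaling, but single members had large rises. URA1, dihydroorotate dehydrogenase, had 945, 939 and 979 CPM in nascent ulp2Δ, against 174, 177 and 171 in WT, a log2 fold change of 2.46 (SE 0.04, adjusted p = 7.06e-16). URA4, dihydroorotase on chromosome XII, had 330, 356 and 337 CPM in nascent ulp2Δ, against 105, 109 and 114 in WT, 0.92 (SE 0.04) above its chromosome. FUI1, the uridine carrier, had 155, 152 and 157 CPM in nascent ulp2Δ, against 55.1, 54.1 and 47.2 in WT. URA3, the plasmid marker that the groups differ by, fell by 4.01 (SE 0.07), and its part in these rises cannot be told apart from that of Ulp2. IMD2, of guanine nucleotide synthesis, rose by 1.14 on the log2 scale. In the arginine list, 6 of 14 genes rose and 4 fell, with a median of 0.11, and both called members fell. ARG1, argininosuccinate synthetase, had 75.8, 71.4 and 77.0 CPM in nascent ulp2Δ, against 316, 308 and 291 in WT, and ARG3 fell by 1.14 (SE 0.09). The arginine breakdown gene CAR2 and the proline oxidase gene PUT1, both on chromosome XII, rose and stood 0.88 (SE 0.07) and 1.32 (SE 0.04) above their chromosome. In sulfur metabolism, 17 of 28 genes fell and 6 rose, with MET6, methionine synthase, at 162, 165 and 160 CPM in nascent ulp2Δ, against 544, 511 and 513 in WT, while CYS4, of cysteine synthesis, fell by 1.15 (SE 0.04). Of 13 branched-chain amino acid genes, 10 fell and 1 rose, and none was called. The vitamin B6 genes SNZ2 and SNZ3, which are nearly identical, fell by 1.35 and 1.18.

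PDR5, the main drug efflux pump of the plasma membrane, was among the 10 largest rises, with 1168, 1182 and 1178 CPM in nascent ulp2Δ, against 221, 211 and 205 in WT. Other efflux genes were looked up after this value was seen. SNQ2 rose by 1.13 (SE 0.06), PDR10 by 1.13 (SE 0.04), YOR1 by 0.96 (SE 0.04) and PDR15 by 0.67 (SE 0.04), and the genes of their regulators PDR1 and PDR3 rose by 0.36 (SE 0.04) and 0.56 (SE 0.04). Among lipid genes, the desaturase OLE1 had 1349, 1318 and 1488 CPM in nascent ulp2Δ, against 3164, 3166 and 3196 in WT. In sterol synthesis, 15 of 25 genes fell and 4 rose off chromosomes I and XII; ERG5 fell by 1.24 (SE 0.07), while the genes of the activators UPC2 and ECM22 rose by 1.25 (SE 0.09) and 1.06 (SE 0.04).

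A list of flocculins, mannoproteins and other genes known from low oxygen had 13 of 15 members higher off chromosomes I and XII, with a median of 0.79, and 1 lower. It includes genes that do not act in the cell wall: the sterol uptake genes AUS1 and PDR11, the heme synthesis gene HEM13, the translation factor ANB1 and CYC7. All 3 of its members on chromosomes I and XII were called higher, against 27.1% of genes there. FLO1, a flocculin that sticks cells together and lies on chromosome I, had 117, 105 and 99.4 CPM in nascent ulp2Δ, against 17.4, 18.4 and 16.5 in WT, 1.90 (SE 0.07) above its chromosome. FLO9, PAU23 and DAN1 rose by 1.44 (SE 0.06), 1.57 (SE 0.07) and 1.23 (SE 0.31), DAN1 at no more than 2.34 CPM. The PAU family is nearly identical and low, with PAU7 at 11.5, 15.9 and 14.5 CPM in nascent ulp2Δ, against 3.28, 3.46 and 3.16 in WT, so its members are uncertain one by one. Of the cell wall list, 9 of 10 genes on chromosomes I and XII rose, a share near the 84.7% of all genes there, and 5 were called; their median stood 0.30 above their chromosome. NCW2, a wall protein, had 732, 698 and 643 CPM in nascent ulp2Δ, against 134, 147 and 132 in WT, and the wall protease YPS3 had 544, 514 and 480, against 136, 142 and 108. They stood 1.61 (SE 0.06) and 1.28 (SE 0.08) above their chromosome. Off these chromosomes, 19 of 39 wall genes rose and 10 fell. In the sporulation list, 12 of 29 rose and 4 fell; IME1, the inducer of meiosis, had 89.7, 86.1 and 86.9 CPM in nascent ulp2Δ, against 37.9, 36.3 and 39.8 in WT, while NDT80, the later meiotic activator, had 17.7, 19.1 and 19.1, against 40.1, 39.8 and 42.7. The low genes IME4 and REC114 rose by 1.74 (SE 0.32) and 1.16 (SE 0.16), and SPO75, of spore formation, stood 1.85 (SE 0.31) above chromosome XII at 6.38 to 9.20 CPM in nascent ulp2Δ, against 0.766 to 1.73 in WT.

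In the SUMO pathway itself, 5 of 10 genes off chromosomes I and XII fell, ULP2 among them, and 1 rose, with a median of -0.17. Apart from ULP2, 9 genes were tested off chromosomes I and XII, of which none was called. A list this short says little, since only 4.14% of genes there were called higher and 2.92% lower. SMT3, which encodes SUMO, had 186, 202 and 190 CPM in nascent ulp2Δ, against 235, 225 and 223 in WT, a log2 fold change of -0.24 (SE 0.05). ULP1, the other SUMO protease, had 95.9, 90.8 and 92.0 CPM in nascent ulp2Δ, against 104, 92.7 and 103 in WT; the groups overlapped and the test did not pass (adjusted p = 0.21). Of 15 genes of SUMO-targeted ubiquitin ligases and Cdc48, 6 rose and 6 fell with none called. In the silencing and rDNA list, 10 of 21 fell and 5 rose, none was called, and the most abundant members ESC1 and HMO1 were at 0.00025 and 0.15 on the log2 scale. Of 177 tested genes near chromosome ends off chromosomes I and XII, 61 rose and 52 fell, with a median of 0.10.

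The genes farthest from their own chromosome, among those with non-overlapping libraries and a DESeq2 call, were a mixed set. Above it stood AFB1, DFP2 (a chromosome I gene at 21.5, 24.3 and 21.8 CPM in nascent ulp2Δ, against 2.64, 3.05 and 4.21 in WT), FLO1, SPO75 and PAU4. Below it stood PHO11, the transposon gene YLR227W-B, the glutaredoxin GRX8, ACO1 and the isocitrate dehydrogenase IDP2, which had 1014, 1009 and 1066 CPM in nascent ulp2Δ, against 1635, 1668 and 1576 in WT. YLR227W-B is 1 of many near-identical Ty copies, and its nascent libraries were uneven at 16.8, 16.3 and 60.7 CPM, with a WT maximum of 71.9 CPM. Off these chromosomes, the remaining large rises were YNL018C, YOL014W, AUA1 and YDR250C, all at low level, of which YOL014W had 13.8, 14.1 and 14.3 CPM in nascent ulp2Δ, against 2.81, 2.50 and 1.73 in WT.

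Some calls rested on single libraries. Among called genes, 13 had libraries that differed more than 8-fold within nascent ulp2Δ or within WT, 11 of them called higher. SCW10, a wall glucanase, had 10051, 10 and 10575 counts in nascent ulp2Δ, against 12, 12 and 9 in WT. IFH1, a regulator of ribosomal protein genes on chromosome XII, had 28, 14118 and 37 counts in nascent ulp2Δ, against 29, 26 and 27 in WT. YAL045C, on chromosome I, had 551, 24 and 12 counts in nascent ulp2Δ, against 8, 2 and 11 in WT. YLR157C-B, a Ty gene on chromosome XII, had no count in nascent ulp2Δ and 0, 0 and 147 counts in WT. YBR225W had 46, 53 and 2322 counts in nascent ulp2Δ, against 38, 43 and 36 in WT. In each of these the call rested on 1 or 2 libraries, and the values are not read as expression. The forms snR7-L and snR7-S of a spliceosomal RNA share sequence: snR7-L had 27, 966 and 682 counts in nascent ulp2Δ, against 0, 25 and 23 in WT, while the sum of both was 1963, 2137 and 1837 in nascent ulp2Δ, against 2269, 2406 and 2225 in WT. YNL284C-A, a Ty frame, had 10, 530 and 475 counts in nascent ulp2Δ, against 10, 8 and 8 in WT. How the authors' counting divided reads between such features was not tested.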

How the data were processed

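RNA of exponentially growing cultures was sequenced as paired-end reads. Per the labels, the authors used Trim Galore 0.5.0, HISAT2 2.1.0, StringTie 1.3.3b and DESeq2 1.22.1 with sacCer3, and the counts they deposited are whole numbers for each gene, not normalized. How counts were derived from StringTie, and whether strand was used, is not given in the sources used here, so overlapping, antisense and near-identical genes are uncertain.

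The 6 unnamed loci (0.12 to 0.173% of counts) were left out. Of 7108 named features, 6011 matched the R64 annotation by systematic name. The 12 libraries were fitted together by group with edgeR 4.0.16 (TMM, filterByExpr, quasi-likelihood test, Benjamini-Hochberg adjustment over 6372 genes) in R 4.3.3. For chromosomes I and XII, a second fit tested each gene against its chromosome median. In counts simulated for this comparison with 6141 unchanged genes, 14 passed the test and 1 was called, and all 67 genes changed by 1.5 on the log2 scale were called. The simulated counts held few changed genes and no shift of chromosomes I and XII. They therefore do not give error rates for data with such shifts or with uneven libraries. Replicate pairs within each group differed by more than sampling noise (chi-square per degree of freedom 6.47 to 16.1).

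The members and gene lists were chosen with earlier results of these data known. Named genes were ULP2 and marker genes; the 10 largest rises and falls off chromosomes I and XII among called genes with non-overlapping libraries, 50 or more counts on average in the group with more, and a DESeq2 1.42.0 call; the 5 farthest above and below their chromosome median; and up to 4 called members of each list, or its 2 most abundant where fewer than 2 were called. The phosphate list holds CTF19, a kinetochore gene, by mistake. Alternatives changed the scaling, the filter, the tool, the libraries fitted, the fold threshold and the replicates.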

Additional observations from a re-analysis of the deposited data

Results flagged for a closer look

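Among the 6 unnamed loci that StringTie assembled and that no comparison above used, 3 had more counts in every nascent ulp2Δ library than in any WT library. Locus STRG.5506 had 362.9, 341.2 and 341.8 CPM in nascent ulp2Δ (mean 349), against 271, 298 and 257 CPM in WT. Locus STRG.5314 had 110, 106 and 114 CPM in nascent ulp2Δ (mean 110), against 80.8, 78.2 and 84.9 in WT. Locus STRG.1790 had 69.4, 69.6 and 68.2 CPM in nascent ulp2Δ (mean 69.0), against 40.9, 47.5 and 47.5 in WT. A further locus, STRG.3099, was lower in every nascent library, with 1.23, 0.455 and 0.767 CPM in nascent ulp2Δ, against 5.15, 5.55 and 4.13 in WT. These loci have no position or gene name in the table, and the differences were not tested.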

How the results depend on the processing

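At a 1.5-fold threshold, 942 genes were higher and 737 lower in nascent ulp2Δ, 564 and 729 of them off chromosomes I and XII, and 86 lay above and 63 below the median of chromosome I or XII. At 2-fold, every other planned setting kept these 6 counts within 1.5 times of those reported, as did leaving out genes with libraries more than 8-fold apart, an alternative chosen after seeing the data. The shift of chromosome XII was 0.81 with a filter of CPM of at least 1 in 3 libraries. Leaving out 1 library at a time gave shifts of 0.78 to 0.86 for chromosome I and 0.80 to 0.81 for chromosome XII. With library totals, 576 genes were higher and 114 lower (83.5% higher, against 70.8% with TMM). With only the 6 libraries compared in the fit, 445 genes were higher and 156 lower. Replicate numbers are not stated to pair the libraries. In deviations from group means, same-numbered nascent and WT libraries correlated at 0.081 to 0.093, each best with its own number. Differently numbered libraries correlated at -0.055 to -0.029. Whether the number marks a shared batch was not tested. With replicate number as a block in the fit, 415 genes were higher and 170 lower. Over the named genes and all settings, 2591 fold changes kept their side of the call, 34 no longer passed it, 1 newly passed it and none that was called changed sign. Of the gene list medians, 491 moved by less than 1 SD of the nascent libraries and 321 by more, and 26 changed sign, among lists whose median lay between -0.27 and 0.01. Called falls lost under library totals included NOP8, PGI1, MCD1 and ARG3. YLR227W-B lost its call against WT without nascent ulp2Δ replicate 1 or 2, with log2 fold changes between -0.83 and -0.80. These are not distances from its chromosome's median. At this depth, genes under about 1 CPM are the least precise.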
